A study of Mus musculus with 3 samples.

Results

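The HGF and MET axis is a pair of secreted growth factors, their receptors and the proteases and inhibitors that decide whether the growth factors are active. It was followed here through 8 mouse genes, Hgf, Mst1, Met, Mst1r, Hgfac, St14, Spint1 and Spint2. They were found through the transcript accession that the array design gives for each probe, matched to a RefSeq gene table, and they came to 8 of 20577 named genes and 11 of 27076 named probes. Each of 3 cell populations was a pool of 5 samples, and its labelled RNA was read on 1 one-colour expression array. iHep were hepatocyte-like cells, made from primary fibroblasts of SiO2-remodelled mouse spleens with the lentivirus LV-3TF, whose name stands for 3 transcription factors that the labels do not identify, and collected after 14 days. PH were primary mouse hepatocytes taken directly after isolation as a positive control. MF were the same kind of spleen fibroblasts given the control lentivirus LV-NC and collected at the same 14 days. All 3 are labelled female, and the age and strain of the mice are not given in the labels. iHep and MF share the spleen origin, the culture and a lentiviral transduction, and PH differ from both in all of these.

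HGF is made by mesenchymal cells, such as fibroblasts and the stellate cells of the liver, and acts on epithelial cells and hepatocytes through the receptor tyrosine kinase MET. In liver it is best known as a driver of hepatocyte growth after injury. Its relative macrophage-stimulating protein, encoded by Mst1, is made by hepatocytes and binds the receptor RON, encoded by Mst1r. Both factors are secreted as inactive single chains that a serine protease must cleave. HGF activator (Hgfac), which circulates in blood, and matriptase (St14), which sits on epithelial surfaces, are among those proteases, and the Kunitz-type inhibitors HAI-1 (Spint1) and HAI-2 (Spint2) block them. The gene Mst1 described here is not the Hippo pathway kinase Stk4, which is also called MST1.

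Promoter sequences are shown for Mst1 and Hgfac, which were high in PH and low in MF, for Hgf, which was not above background on iHep, and for Spint2, whose 2 probes disagreed in iHep, so that the starts of the genes can be read beside the values. They were taken from RefSeq on build GRCm38.p6 and run from 250 bases before to 50 bases after an annotated start. The table held 9 such promoters for 7 of the 8 genes, and St14 was not among them. Capitals mark matches, on either strand, to 5 short motifs: the HNF4 motif part CAAAGTCCA, the HNF1 motif GTTAATNAT, the FOXA motif TGTTTAC, the C/EBP motif TTGCNNAA and the E-box CACCTG bound by the ZEB and SNAI repressors. No motif lies inside another.
Mst1, chr9:108080186-108080485, plus strand: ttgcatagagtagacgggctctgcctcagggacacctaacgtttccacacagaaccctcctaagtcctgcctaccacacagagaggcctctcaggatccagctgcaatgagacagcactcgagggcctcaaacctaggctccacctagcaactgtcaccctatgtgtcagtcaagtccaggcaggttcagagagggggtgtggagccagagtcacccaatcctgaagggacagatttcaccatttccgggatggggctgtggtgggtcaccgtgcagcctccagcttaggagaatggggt
Hgfac, chr5:35041259-35041558, plus strand: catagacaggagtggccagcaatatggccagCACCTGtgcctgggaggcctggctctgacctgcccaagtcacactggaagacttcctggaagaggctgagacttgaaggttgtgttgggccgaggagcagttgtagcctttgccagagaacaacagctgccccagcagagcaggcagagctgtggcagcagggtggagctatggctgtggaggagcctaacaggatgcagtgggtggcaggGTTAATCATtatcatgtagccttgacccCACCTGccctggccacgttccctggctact
Spint2, chr7:29281928-29282227, minus strand: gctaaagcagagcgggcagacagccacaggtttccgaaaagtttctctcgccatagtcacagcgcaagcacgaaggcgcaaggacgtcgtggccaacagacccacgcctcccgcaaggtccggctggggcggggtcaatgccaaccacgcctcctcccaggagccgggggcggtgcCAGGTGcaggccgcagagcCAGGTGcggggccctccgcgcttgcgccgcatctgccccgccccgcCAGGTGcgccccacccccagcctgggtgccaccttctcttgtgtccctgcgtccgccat
Hgf, chr5:16553245-16553544, plus strand: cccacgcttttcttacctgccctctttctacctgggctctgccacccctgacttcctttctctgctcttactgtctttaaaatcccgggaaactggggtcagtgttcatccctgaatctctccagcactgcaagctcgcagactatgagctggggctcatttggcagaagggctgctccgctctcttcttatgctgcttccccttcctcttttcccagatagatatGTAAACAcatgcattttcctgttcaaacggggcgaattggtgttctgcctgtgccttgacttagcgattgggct
Positions given here are those of the first base of a match. The Hgfac window held an HNF1 match that began 8 bases before the start and ran into it, and E-boxes at -219 and 21. The Spint2 window held 3 E-boxes, at -74, -55 and -9. The Hgf window shown held a FOXA match at -24, and the window of the second annotated Hgf start held no match. The Mst1 window held no match to any of the 5 motifs, nor did those of Mst1r and Spint1, and the Met window held 1 E-box at 26. Among 32851 promoters of the same length, 0.80% held the HNF1 motif, 3.65% the FOXA motif, 20.2% the E-box, 10.8% the C/EBP motif and 0.47% the HNF4 motif. These matches describe letters in the window and say nothing about binding.

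Values below are levels, the log2 of the processed intensity relative to the 75th percentile of the same array, so that 0 is that percentile. It was an intensity of 3751.5 on iHep, 2080.9 on PH and 544.3 on MF, which makes the MF array much the dimmest. A difference is a difference of levels, and "higher" or "lower" means at least 2-fold, a log2 difference of 1 or more in size. With a single array per group no difference could be tested or checked against replicates, and the number of arrays sets the precision. The technical SD of a log2 difference was 0.14 to 0.15 between repeated spots of a probe. Among the 8 genes only the Met and Mst1r probes had repeated spots, and every other probe had 1 spot per array. Between different probes of a gene it was 0.84 in iHep over MF, 1.09 in iHep over PH and 1.11 in PH over MF. MF had a scan of its own while iHep and PH were scanned together, so that for any comparison with MF, scan and group cannot be told apart. A gene that was not well above background on 1 array is given as "at least" so many fold. The fold was taken against the lowest level any probe above background had there, or against the gene's own reading where that was higher. That lowest level was -7.32 on iHep, -6.89 on PH and -6.30 on MF. Such a bound depends on this choice and on the background correction. Levels of different genes are not compared, since each rests on its own probe.

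Hepatocyte markers were high in PH and mostly near the MF level in iHep. All 6 measured hepatocyte markers were higher in PH than in MF, with a median log2 difference of 11.50, whereas 2 of the 5 that could be compared were higher in iHep than in MF, Hnf4a by 6.66 and Cyp3a11 by at least 5.03. Since the factors in LV-3TF are not identified, whether the Hnf4a reading in iHep includes a transcript of the virus was not tested. Alb, the gene of serum albumin, had a level of -4.75 in iHep, against 6.67 in PH and -5.20 in MF. Fibroblast markers were lower than in MF for 8 of 8 genes in iHep and 7 of 8 in PH. Of 6 epithelial markers compared, 5 were higher in iHep than in MF, with a median of 4.18. PH also carried transcripts of other cells: all 7 endothelial markers and all 6 measured pancreatic acinar markers were higher than in MF. On PH the log2 summed level was 8.54 for the hepatocyte list, 8.33 for the pancreatic acinar list and 6.09 for the endothelial list. The part of these other cells in the PH values below was not tested.

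**Figure D1:**
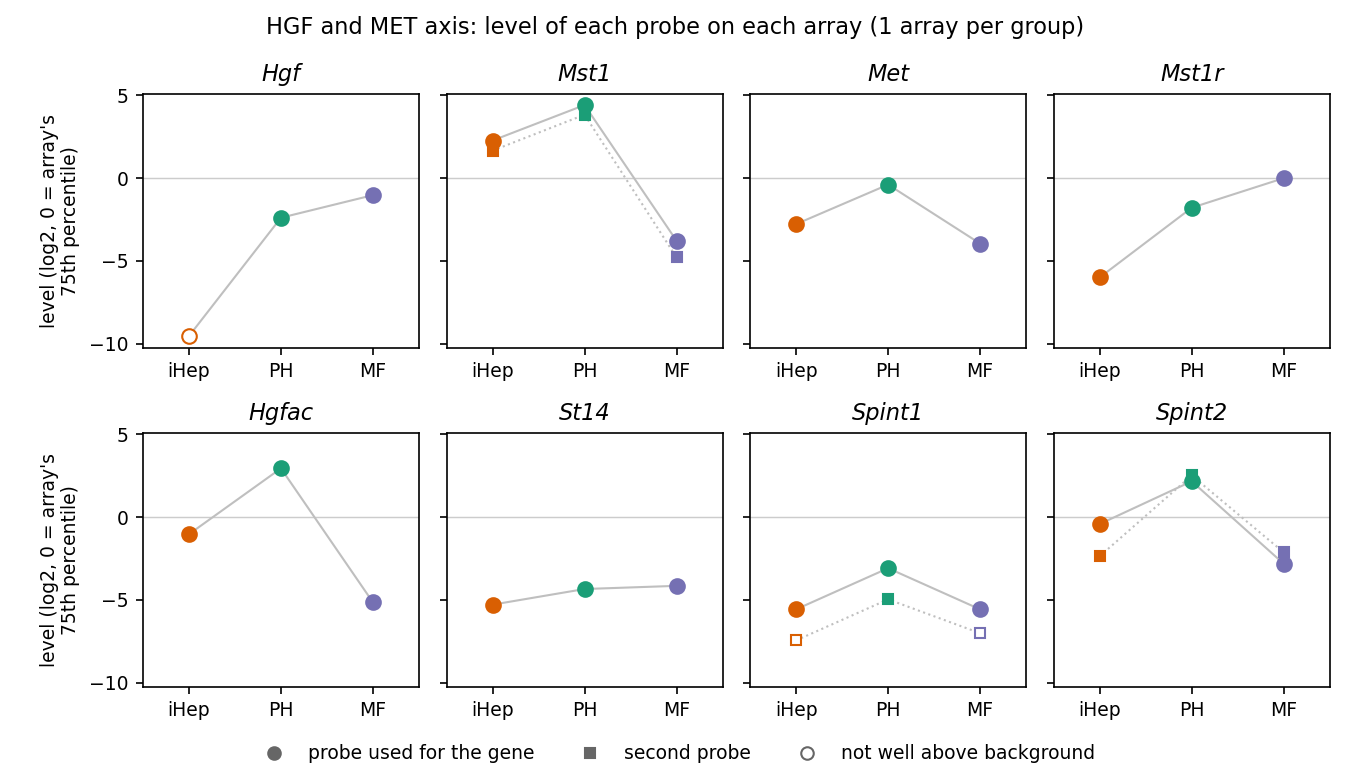
Level of every probe of the 8 genes on the iHep, PH and MF arrays (log2 of processed intensity, 0 is the array's 75th percentile; 1 array per group, no error bars). Circles are the probe used for the gene, squares the second probe of Mst1, Spint1 and Spint2, and open symbols readings not well above background; the Hgf probe was at -9.53 in iHep, -2.40 in PH and -1.03 in MF, and the Mst1 probe at 2.26 in iHep, 4.40 in PH and -3.79 in MF.

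In iHep the ligands and receptors did not go together. Hgf and Mst1r were far lower than in MF, and St14 was lower (not with quantile normalization or in the authors' values). Mst1, Hgfac, Spint2 (by 1 of its 2 probes) and Met (not with normexp, an alternative background correction) were higher. In all, 4 of the 8 genes were higher and 3 lower, against 19.9% of 17092 compared genes higher and 23.4% lower. The median of the 8 was 0.59, beside 0.00 for all genes, but -0.76 with normexp, under which 3 were higher and 4 lower. PH over MF gave 5 higher and 2 lower, where 30.8% of 17722 genes were higher and 25.4% lower; the median was 3.02, beside 0.04 for all genes. Normexp gave 4 higher and 3 lower with a median of 1.38 there, and quantile normalization 5 higher and 3 lower with a median of 2.49. Set against PH, none of the 8 was higher in iHep and 7 were lower, where 23.3% of 17926 genes were higher and 35.9% lower; the median was -2.53, beside -0.29. The 2 comparisons with MF share the MF array. Among all genes that differed 2-fold, the share that was higher depended on the scaling: in iHep over MF it was 45.9%, against 27.7% with normexp and 56.6% in the authors' values. In PH over MF it was 54.8%, against 38.9% with normexp and 43.2% with quantile normalization. In iHep over PH it was 39.3%, against 55.0% with quantile normalization and 54.4% in the authors' values.

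Hgf encodes the ligand of MET and was read by 1 probe with 1 spot on each array. Its level was -9.53 in iHep (intensity 5.06, not well above background), against -2.40 in PH (intensity 395.5) and -1.03 in MF (intensity 266.2). Hgf was thus at least 78.4-fold lower in iHep than in MF (log2 -6.29; -4.80 with normexp) and at least 30.5-fold lower than in PH (log2 -4.93; -3.55 with normexp). With Hgf taken at its bound, 299 of the 17092 genes compared between iHep and MF had a lower value. PH stood 2.57-fold below MF (log2 -1.36). In bulk RNA, fewer cells that make a transcript and less of it per cell cannot be told apart. Among the cells known to make Hgf are the stellate cells of the liver, and all 7 of their markers were well above background on PH. These markers included Lrat, the retinol-storing enzyme, at 0.02 and the collectin Colec10 at 0.48, neither of which was above background on iHep or MF. In PH over MF, 5 of the 7 stellate markers were higher, of which Reln and Hand2 were not with normexp. The other 2 were lower, Ngfr at log2 -3.05 and Des at -4.06. The log2 summed level of the stellate list was -3.25 in iHep, 1.77 in PH and 1.81 in MF, where Ngfr and Des carried it. The summed level of the fibroblast list was 5.51 in iHep, 4.97 in PH and 9.04 in MF. The part of these or any other cell types in the Hgf levels was not tested.

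Mst1 encodes the ligand of RON, a product of hepatocytes, and was lowest in MF. Its level was 2.26 in iHep (intensity 17959), 4.40 in PH (intensity 43890) and -3.79 in MF (intensity 39.5). It was 66.0-fold higher in iHep than in MF (log2 6.04), and 26 of 17092 genes had a larger value. PH exceeded MF 290.9-fold (log2 8.18; 7.04 with normexp), and iHep lay 4.41-fold below PH (log2 -2.14). The second Mst1 probe gave log2 differences of 6.44 in iHep over MF, -2.17 in iHep over PH and 8.61 in PH over MF, so that both probes ordered the arrays alike. Every alternative kept Mst1 more than 2-fold apart in each pair of arrays, from 4.87 to 6.44 in iHep over MF.

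Met encodes the HGF receptor. The probe was printed 10 times, of which 9 spots were used on each array because 1 was marked as an outlier on all of them. The spots read 523 to 576 on iHep, 1324 to 1800 on PH and 28.8 to 40.5 on MF, and the spots of different arrays did not overlap. As levels these were -2.78 in iHep, -0.40 in PH and -3.95 in MF, with an SD between spots of 0.05 in iHep, 0.13 in PH and 0.14 in MF. Met was 2.26-fold higher in iHep than in MF (log2 1.17), a call that did not hold with normexp, which gave 0.08. PH exceeded MF 11.8-fold (log2 3.56; 2.35 with normexp), and iHep lay 5.21-fold below PH (log2 -2.38).

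Mst1r, encoding RON, ran the other way. Its 10 spots read 45.7 to 71.6 on iHep, 501 to 676 on PH and 489 to 584 on MF, so the raw spots of PH and MF overlapped while those of iHep lay apart. The levels were -6.00 in iHep, -1.79 in PH and -0.01 in MF, with an SD between spots of 0.17 in iHep, 0.13 in PH and 0.06 in MF. Mst1r was 63.4-fold lower in iHep than in MF (log2 -5.99; -4.95 with normexp), with 341 of 17092 genes lower still, and 18.4-fold lower than in PH (log2 -4.20; -3.28 with normexp). PH lay 3.44-fold below MF (log2 -1.78) as levels, while the mean intensities were close, 601 in PH and 540.9 in MF. RON is also carried by tissue macrophages. Of 7 measured macrophage markers, the probe used was well above background for 4 on iHep and for 7 on PH and on MF, and their summed level was -0.15 in iHep, 6.54 in PH and 6.32 in MF. C1qa and C1qc, subunits of complement C1q, were not well above background on iHep, nor was the probe used for the macrophage receptor Adgre1, whereas the levels of C1qc were 4.76 in PH and 4.81 in MF. Of the 6 markers with a value for iHep over MF, 5 were lower, with a median of -7.78. In PH over MF 1 of 7, Csf1r, was higher and none lower. The part of macrophages in the Mst1r levels was not tested.

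**Figure D2:**
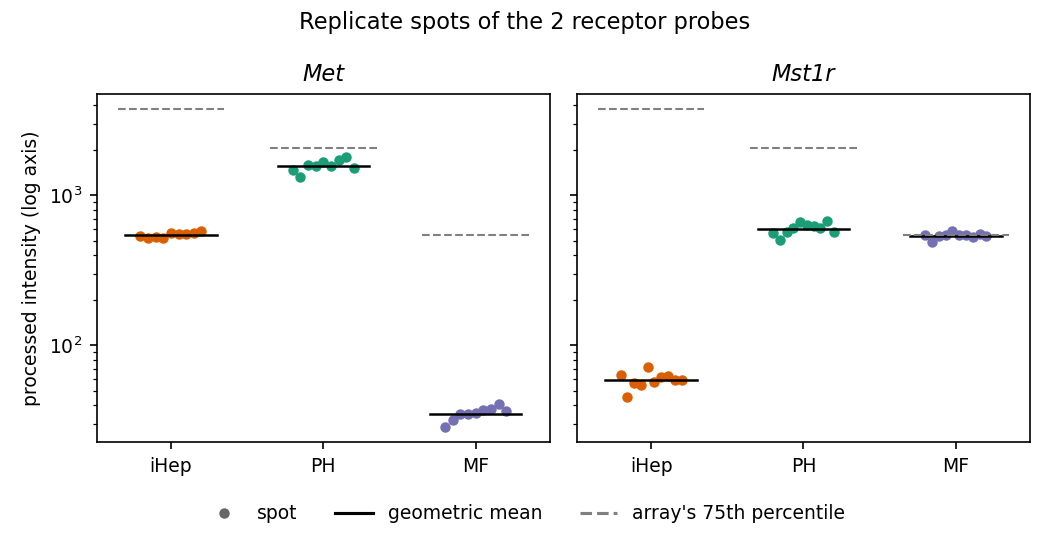
Processed intensity (log axis) of each replicate spot of the Met probe (9 spots per array) and the Mst1r probe (10 spots per array) on iHep, PH and MF; the solid line is the geometric mean and the dashed line the array's 75th percentile, to which levels are scaled. Met spots read 28.8 to 40.5 on MF and at least 523 on the other arrays, and Mst1r spots 45.7 to 71.6 on iHep and at least 489 on the other arrays.

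Hgfac encodes the circulating HGF activator, made mainly by the liver. Its level was -1.04 in iHep (intensity 1825), 2.93 in PH (intensity 15902) and -5.15 in MF (intensity 15.4). It was 17.2-fold higher in iHep than in MF (log2 4.11), and normexp lowered this to 1.73. PH exceeded MF 270.5-fold (log2 8.08; 5.67 with normexp). The iHep level lay 15.7-fold below that of PH (log2 -3.97). The PH over MF difference of Hgfac, 8.08, was close to the 8.18 of Mst1, while its iHep over PH difference of -3.97 was larger in size than the -2.14 of Mst1.

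St14, encoding matriptase, was dim on all arrays, with levels of -5.28 in iHep, -4.34 in PH and -4.15 in MF. It was 2.20-fold lower in iHep than in MF (log2 -1.13), and normexp gave -1.93. Quantile normalization and the authors' values gave -0.94, which is under 2-fold. PH over MF was -0.19, and -1.08 with normexp or quantile normalization. The iHep over PH difference of -0.94 changed sign under quantile normalization and in the authors' values, to 0.14. No pair of arrays kept St14 past 2-fold under every scaling.

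Spint1, encoding the matriptase inhibitor HAI-1, had levels of -5.57 in iHep, -3.09 in PH and -5.57 in MF. iHep and MF were level (log2 0.00), though normexp gave -1.60. PH exceeded MF 5.59-fold (log2 2.48), which fell within 2-fold under normexp at 0.41, and iHep lay 5.58-fold below PH (log2 -2.48; -1.60 with quantile normalization). The second Spint1 probe was well above background only on PH, where it exceeded MF at least 2.53-fold (log2 1.34).

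Spint2, encoding HAI-2, was measured by 2 probes designed on different transcripts that disagreed in iHep. The probe used had the higher mean level over the 3 arrays, but it was the brighter of the 2 only on iHep. Its iHep reading thus entered both the choice of probe and the iHep over MF value. The probe used had levels of -0.42 in iHep, 2.15 in PH and -2.82 in MF. It gave 5.28-fold higher in iHep than in MF (log2 2.40) and 31.5-fold higher in PH than in MF (log2 4.98). The other probe read -2.36 in iHep, 2.51 in PH and -2.14 in MF, and gave -0.23 for iHep over MF and 4.64 for PH over MF. Both put iHep below PH, at -2.58 for the probe used and -4.87 for the other. For iHep over MF the mean of both probes gave 1.09, and normexp on the probe used 1.73. Both probes thus had Spint2 higher in PH than in MF, and 1 of 2 had it higher in iHep.

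**Figure D3:**
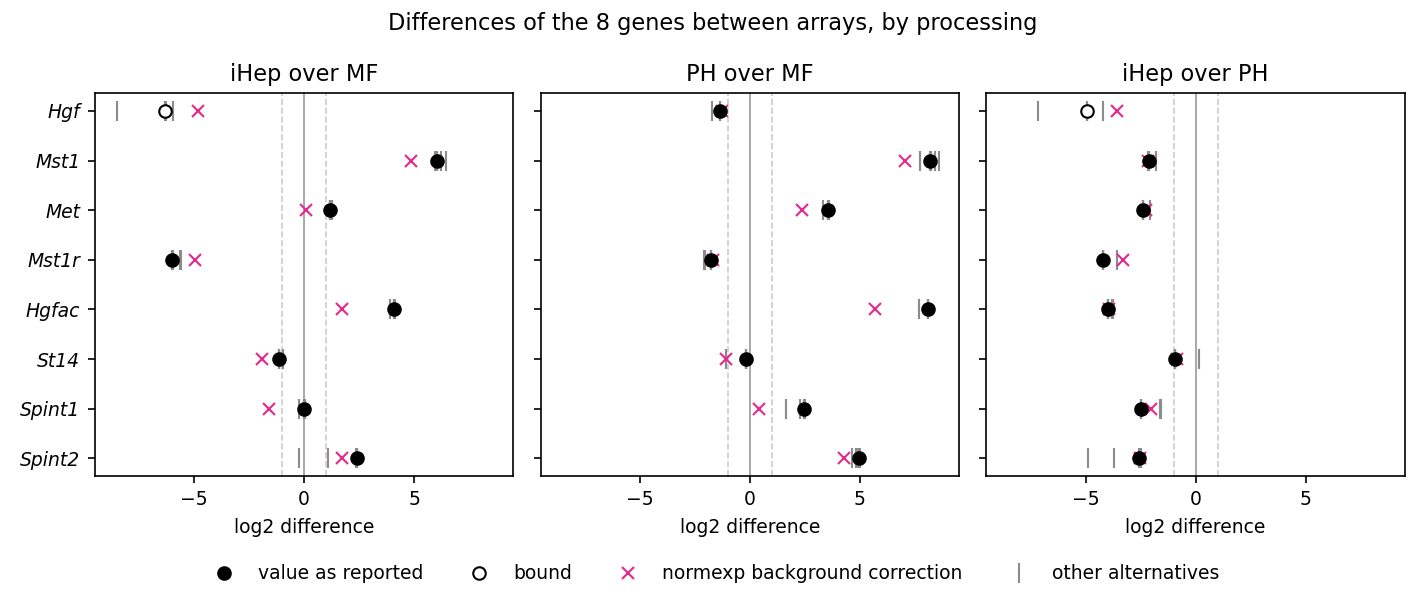
Log2 difference of each of the 8 genes, in panels of iHep over MF, then PH over MF, then iHep over PH (1 array per group). Filled circles are the values reported, open circles bounds, crosses the value with normexp background correction and ticks the other alternatives, and dashed lines mark 2-fold. For iHep over MF normexp moved Met (1.17 to 0.08) and Hgfac (4.11 to 1.73) toward 0, while the second probe of Spint2 gave -0.23.

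Around these genes, 7 lists of the wider pathway were read in the same way, with values given as log2 differences and counts to be set beside the shares of all genes above. The first held other serine proteases that cleave HGF, the Mst1 protein or their activators, or that are related to such proteases. In PH over MF, 11 of 14 were higher and 2 lower, and the median was 8.65 (8 higher and 2 lower with normexp, median 5.89). F2, prothrombin, was higher by at least 11.92, Plg, plasminogen, by at least 11.83, F12, coagulation factor XII, by at least 10.28 and the membrane protease Hpn, hepsin, by 9.03. In iHep over MF, 2 of 11 were higher and 2 lower, and the median was 0.40. Normexp gave 1 higher and 5 lower of 11 with a median of -0.78. Habp2, a circulating hyaluronan-binding protease, was 68.2-fold higher in iHep than in MF (log2 6.09; 3.66 with normexp), with a level of 0.75 in iHep, 4.17 in PH and -5.34 in MF. F2 was higher in iHep by at least 2.31, which normexp brought to 0. The plasminogen activators Plau and Plat, urokinase and tissue-type activator, were lower in iHep than in MF at -5.68 and -2.75 and lower in PH than in MF at -3.71 and -5.22. iHep over PH gave 1 higher, Plat at 2.47, and 13 lower of 14.

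Of the inhibitors of these proteases that are reported here, 3 of 5 were higher and none lower in PH over MF, and 1 of 4 was higher and 1 lower in iHep over MF, where normexp gave none higher and 2 lower. Serpinc1, antithrombin, was higher in PH by at least 12.07 and Serpinf2, alpha-2-antiplasmin, by 10.55. In iHep, Serpinf2 was higher than in MF by 2.34 (0.60 with normexp). Serping1, the C1 inhibitor, was lower in iHep than in MF at -5.94 and higher in PH than in MF by 4.10.

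Genes of the cell-surface and co-receptor list were measured on all arrays, 12 of 12. In iHep over MF, 2 were higher and 4 lower, and the median was -0.41 (2 higher and 6 lower with normexp, median -1.06). Dcn, decorin, a matrix proteoglycan that binds MET, was 284.8-fold lower in iHep (log2 -8.15), Nrp1, a semaphorin and growth factor co-receptor, lower at -3.82 and Lrp1, an endocytic receptor, at -3.70, while Itga6, a laminin-binding integrin chain, was higher by 1.65. In PH over MF, 4 were higher and 1 lower, and the median was 0.55. Sdc4, a heparan sulphate proteoglycan, was higher in PH by 3.17, the plexin Plxnb1 by 2.30 (0.35 with normexp) and Nrp1 by 1.47, and Lrp1 was lower at -1.14.

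All 24 adaptors and effectors downstream of MET were well above background on iHep and MF and 23 on PH. In iHep over MF none of 24 was higher and 9 were lower, and in PH over MF none was higher and 10 were lower. The medians were -0.93 in iHep over MF and -0.65 in PH over MF. Gab1, the main docking protein of MET, had levels of -5.16 in iHep, -3.33 in PH and -2.23 in MF and was 7.61-fold lower in iHep than in MF (log2 -2.93). Stat3 was lower in iHep at -1.79, the ERK1 gene Mapk3 at -1.57 and the PI3-kinase subunit Pik3r1 at -1.44. In PH over MF the kinase Src was lower with a bound of -3.23, the MEK1 gene Map2k1 at -2.35, the phosphatase Ptpn11 at -1.96 and the adaptor Gab2 at -1.91. Genes of MET shedding and down-regulation gave 1 higher and 2 lower of 11 in iHep over MF and 2 of each in PH over MF. Ptpn2, a phosphatase that acts on MET, was higher in iHep by 1.53, while the ubiquitin ligase Cblb was lower at -1.47 (-0.62 in the authors' values) and the phosphatase Ptpn1 at -1.02 (-0.91 in the authors' values). In PH, Ptprj, another phosphatase, and Errfi1, a feedback inhibitor of receptor kinases, were higher than in MF by 1.65 and 1.62. Adam10, a sheddase, was lower in PH at -1.04 (-0.99 with normexp), and the Cblb value of -3.32 changed sign among alternatives, which reached 1.64.

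Of the genes that ERK signalling induces, which several receptors besides MET can feed, some differed between the hepatocyte-like and the primary cells and others did not. In iHep over MF, 4 of 12 were higher and none lower, and the median was 0.66. Normexp and quantile normalization gave the same counts, each with a median of 0.69. Fosl1, an AP-1 transcription factor, was 8.81-fold higher in iHep (log2 3.14), Etv4, an ETS factor, higher by 1.99, Plaur, the urokinase receptor, by 1.47 and Spry4, a feedback inhibitor, by 1.28. In PH over MF, 3 of 11 were higher and 6 lower, and the median was -1.03. These counts depended on the processing. Normexp gave 3 higher and 5 lower with a median of -0.90, and quantile normalization 1 higher and 7 lower with a median of -1.04. The authors' values gave 1 higher and 3 lower of 7 with a median of -0.07. Spry4 was 2.67-fold higher in PH, Egr1 2.39-fold and Phlda1 2.15-fold. Egr1 and Phlda1 fell under 2-fold with quantile normalization and in the authors' values. Etv4 and Fosl1 were lower in PH at -3.48 and -3.25, the phosphatase Dusp4 at -2.30 and the inhibitor Spred1 at -2.04. iHep over PH gave 7 of 12 higher and 2 lower, and the median was 1.65.

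Partners and substrates of matriptase on epithelial surfaces were higher in PH than in MF for 5 of 5 genes compared, with a median of 2.68. With normexp 2 of 5 were higher and the median was 0.22. Cdh1, E-cadherin, was higher by at least 7.98, the sodium channel subunit Scnn1a by 3.62, and the membrane proteases Tmprss2 and Prss8 by at least 2.68 and by 2.38, where normexp gave 0.22 and 0.08. In iHep over MF 2 of 4 were higher and none lower, while normexp gave 1 higher and 1 lower. The 2 were Cdh1, by at least 5.18 (2.16 with normexp), and Scnn1a, by 1.64 (0.84 with normexp), while Prss8, prostasin, which acts with matriptase, stood at 0.60 (-1.42 with normexp).

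**Figure D4:**
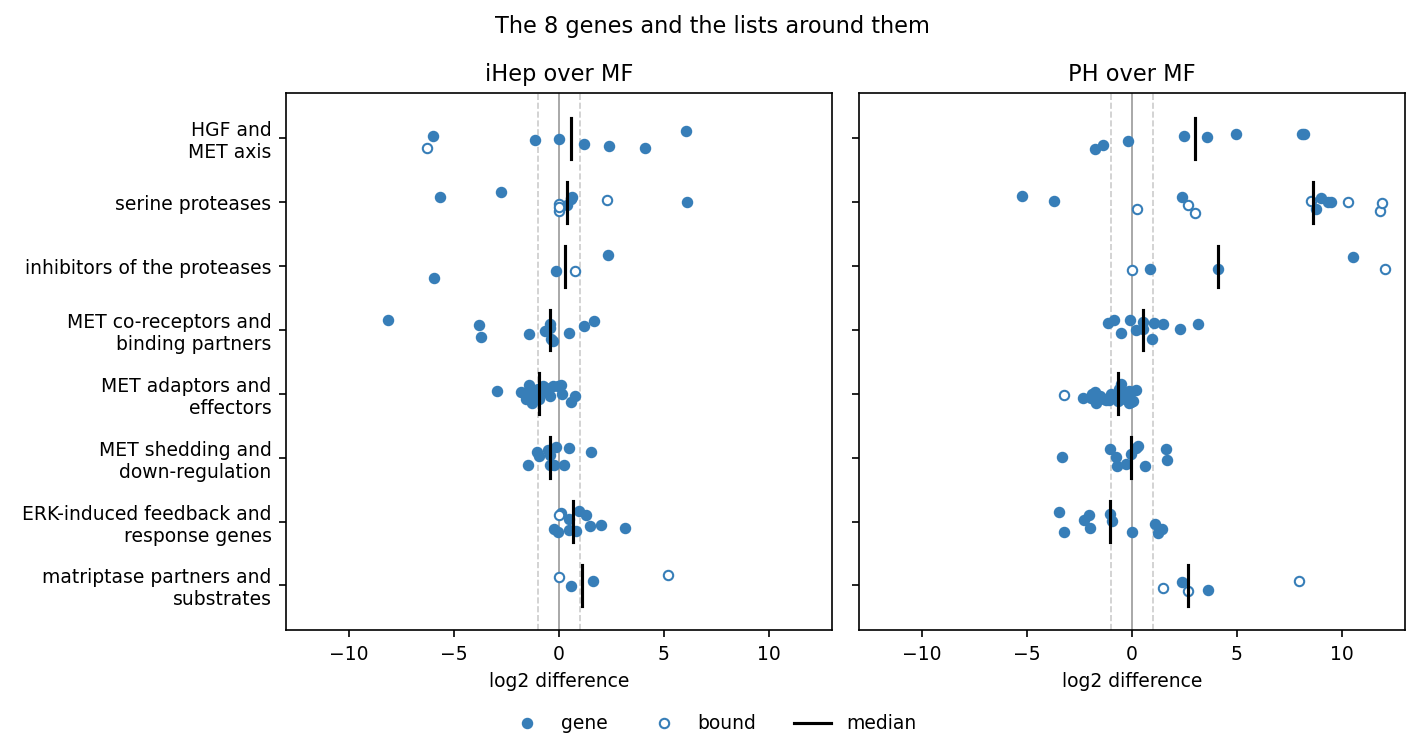
Log2 difference of every compared gene of the HGF and MET axis and of the 7 lists around it, for iHep over MF and PH over MF (1 array per group; open circles are bounds, the vertical bar the list's median, dashed lines 2-fold). The protease list has a median of 0.40 for iHep over MF and 8.65 for PH over MF, and no gene of the adaptor list lies above 2-fold in either panel.

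For Met and St14 the genes nearest in level over the 3 arrays were looked up by Euclidean distance, as a description over 3 points that also depends on how bright each probe is. For Met they were Septin4 at 0.19, Sult5a1 at 0.44 and the prolactin receptor Prlr at 0.45, and for St14 Slc16a8 at 0.22, Kcnk15 at 0.24 and Srsf12 at 0.27, of 13927 candidates each. The Septin4 levels were -2.88 in iHep, -0.40 in PH and -4.12 in MF. No distance is given for Hgf, whose iHep reading was not well above background.

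**Figure D5:**
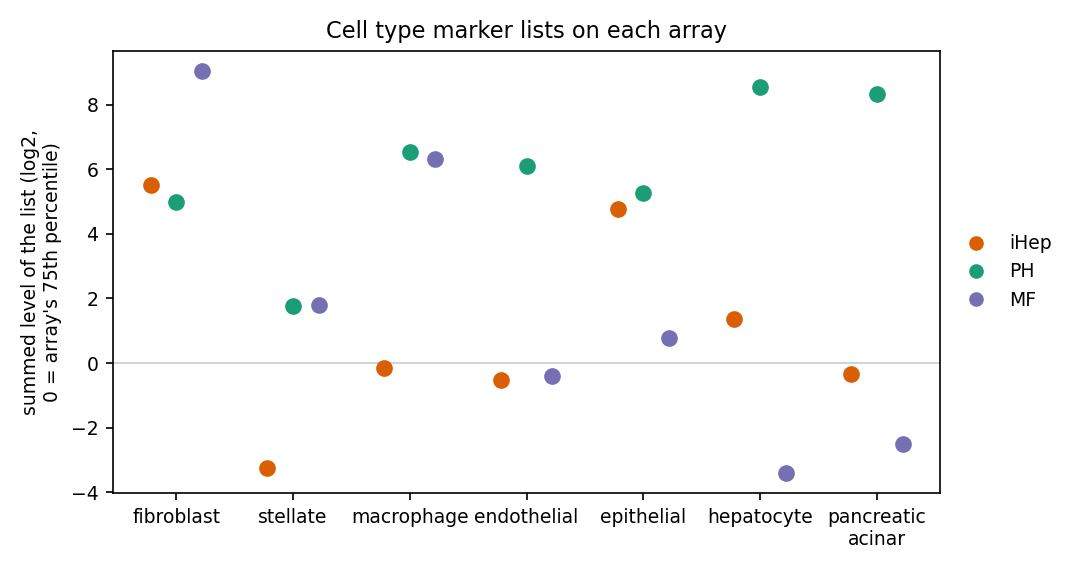
Log2 summed level of 7 cell type marker lists on the iHep, PH and MF arrays (0 is the array's 75th percentile; 1 array per group). The macrophage list, read beside Mst1r, is at -0.15 in iHep, 6.54 in PH and 6.32 in MF, and the stellate list, read beside Hgf, at -3.25 in iHep, 1.77 in PH and 1.81 in MF.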

How the data were processed

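Spot intensity values were deposited as scanner output of 3 one-colour (Cy3) arrays, 1 per group, made with Agilent Feature Extraction 11.0.1.1 per the file headers (9.1 per the submitters' processing notes) and background-subtracted and detrended within the array. The authors' value table holds log2 values of 25845 matched probes, deposited with scale, centring and normalization unstated; its medians were 7.00 for iHep, 7.05 for PH and 7.01 for MF, it correlated with the scanner values at 0.998 for iHep, 0.994 for PH and 0.997 for MF, and it served as an alternative. Groups came from the sample titles.

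Control spots and outlier-marked spots (230 on iHep, 383 on PH, 190 on MF of 43020 non-control spots each) were left out, and no spot was saturated. Levels were log2 of processed intensity minus the array's 75th percentile, with replicate spots averaged. Of 39181 probes, 27076 were named through the RefSeq table of GRCm38.p6; the array was annotated on mm9, so that table's coordinates were not used. A gene was read from its probe with the highest mean level. By at least 1 probe, well above background were 16361 genes on iHep, 17379 on PH and 14997 on MF. A difference is a bound where 1 side was not above background; a bound that would fall under 1-fold was set to 0. Genes were named by rule: all 8 genes, up to 4 genes per list and comparison with the largest differences, the markers, and the 3 nearest genes. A gene named for 1 comparison is also given in others. Hpn, Egr1 and Phlda1 lie outside the rule, chosen after their values were seen. The genes and lists were chosen with earlier results of these data known. A gene of the inhibitor list is not reported here and was left out of its counts. The calculation was tested on simulated data. Among the alternatives, normexp (offset 50, on median signals) used limma 3.58.1 in R 4.3.3, and quantile normalization was run in Python.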

Additional observations from a re-analysis of the deposited data

How the results depend on the processing

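Each of the 24 differences (8 genes in 3 comparisons) was recomputed with 1 choice changed at a time. Quantile normalization, median scaling over probes detected on every array, and the authors' values (21 differences, without Hgf) turned no called difference round. Normexp moved 11 of 24 by more than the disagreement between probes and turned no called difference round. The number of genes lower in iHep than in MF, 3, was 1 of 7 in the authors' values, which lack Hgf and put St14 at -0.94. The number lower in PH than in MF, 2, was 0 at a 4-fold threshold. It was 1 of 7 when limited to genes above background on all 3 arrays, a limit that leaves Hgf out. Taking the probe of each gene with the lowest mean level, an alternative chosen after seeing the data, turned Spint2 in iHep over MF to -0.23. Some alternatives moved the median of all genes: normexp by -0.20 in both comparisons with MF, quantile normalization by -0.17 in PH over MF and 0.50 in iHep over PH, and the authors' values by 0.17 in iHep over MF, 0.52 in iHep over PH and -0.24 in PH over MF. The normexp setting starts from raw median signals and the authors' table covers fewer probes, so both change more than 1 choice; beyond that the cause was not tested. No paired analysis was possible because there was 1 array per group, and the slide or scan could not be fitted as a block for the same reason. Signal over background limits Hgf on iHep, which gives bounds, and the second Spint1 probe on iHep and MF.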
